A study of Homo sapiens with 2 samples.

Results

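The miRNAs miR-143, miR-145, miR-199a, miR-199b and miR-214 are regarded as marks of stromal cells, and they were followed here in U87MG cells, a human line established from a glioblastoma. They were found by name: every listed arm of these 5 stems (hsa-miR-143, hsa-miR-145, hsa-miR-199a, hsa-miR-199b and hsa-miR-214) was taken, which gave 10 of the 1224 listed mature miRNAs. To them were added the dynamin genes DNM2 and DNM3, whose spans hold miR-199a and miR-214 hairpins, 2 of the 21445 listed genes. The series consists of 1 small RNA library (RIN, the RNA integrity number, 8.7) and 1 mRNA library (RIN 9.3) of untreated U87MG cells grown in MEM with 10% FBS and antibiotics, with no replicate and no control cell. No spread between replicates can therefore be given, and intervals on read shares cover counting error only. They do not cover differences in how well the library preparation captured each small RNA or arm, which were not tested. Ratios and arm shares below are therefore those of reads.

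A miRNA hairpin gives a 5p and a 3p mature strand, one on each side of the stem. The strand that is loaded into an Argonaute protein recognises its targets mainly through the seed, bases 2 to 8 from the 5′ end. miR-143 and miR-145 are cut from a shared primary transcript and are known for their high level in smooth muscle cells, pericytes and fibroblasts, where they favour the contractile state. The miR-199a-2 and miR-214 hairpins likewise lie on a shared transcript, DNM3OS, which is known from mesenchymal tissues of the embryo and is antisense to DNM3. In intact tumours these miRNAs are read mostly as a sign of stromal cells, which a cell line culture lacks.

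The mature sequences are shown because the counts were made per listed sequence, and because the seeds decide which members can act alike. They are printed 5′ to 3′ as listed in the deposited miRNA table, with T written as U and the seed in capitals.
miR-143-3p: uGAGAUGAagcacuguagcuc
miR-143-5p: gGUGCAGUgcugcaucucuggu
miR-145-5p: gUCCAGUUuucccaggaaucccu
miR-145-3p: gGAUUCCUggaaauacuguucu
miR-199a-3p: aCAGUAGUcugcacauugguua
miR-199b-3p: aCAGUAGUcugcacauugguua
miR-199a-5p: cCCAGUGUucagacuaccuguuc
miR-199b-5p: cCCAGUGUuuagacuaucuguuc
miR-214-3p: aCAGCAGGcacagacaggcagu
miR-214-5p: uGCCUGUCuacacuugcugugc

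The 10 arms carried 8 different seeds. The 3p arms of miR-199a and miR-199b had the same sequence over all 22 bases. Their 5p arms shared the seed and differed at 2 positions counted from the 5′ end, written with the miR-199a base first: C10U and C17U. miR-143, miR-145 and miR-214 shared no seed with each other or with miR-199. RefSeq lists a mature sequence for 9 of the 10 arms, and all 9 were identical to the deposited one.

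The levels of the 5 stems spanned more than 4 orders of magnitude. miR-143 had 47487 reads over both arms, miR-145 had 6187, miR-199a 136, miR-199b 31 and miR-214 3. Together they had 53844 of 11785001 miRNA reads, or 0.457% (exact Clopper-Pearson 95% interval 0.453 to 0.461%). Of these member reads 88.2% belonged to miR-143 and 11.5% to miR-145. The other 3 stems shared 170 reads, or 14.4 RPM (reads per 1000000 miRNA reads), so that miR-143 and miR-145 together had 316 times as many (counting interval 272 to 369). The 5 miRNAs thus did not form a single level class in these cells.

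miR-143-3p was the highest arm with 47123 reads, or 3999 RPM (3963 to 4035), at rank 24 of the listed miRNAs. miR-99b-5p (56671 reads) and miR-27a-3p (54687) stood next above it, and miR-378a-3p (45444) and miR-151a-3p (45188) next below. miR-21-5p, the most abundant miRNA of the library, had 147 times its reads (146 to 148). miR-145-5p followed with 4472 reads (379 RPM, 368 to 391) at rank 84, miR-145-3p with 1715 (146 RPM, 139 to 153) at rank 123, and miR-143-5p with 364 (30.9 RPM, 27.8 to 34.2) at rank 212. All 4 arms of this pair stood high in the list, at percentiles from 82.8 for miR-143-5p to 98.1 for miR-143-3p.

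**Figure D1:**
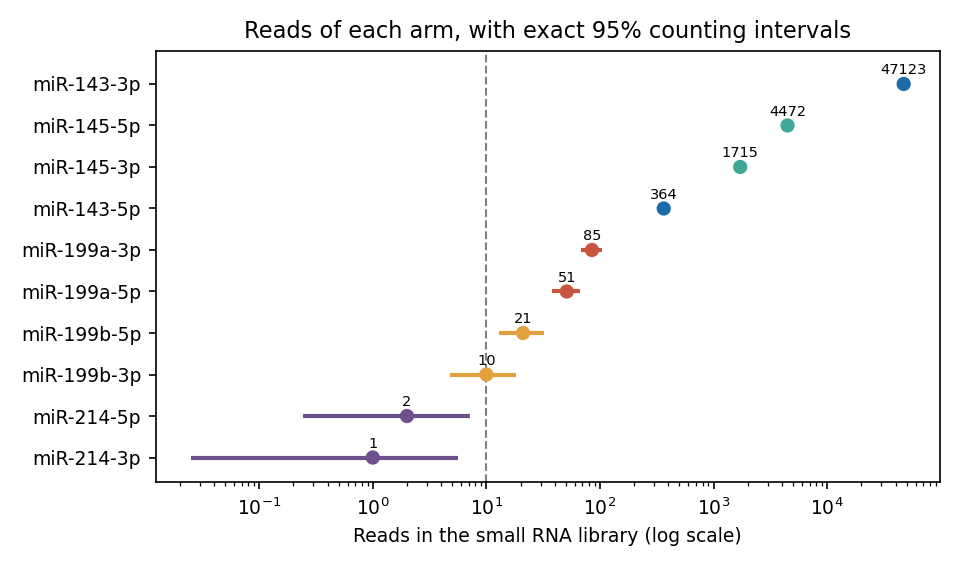
Reads of each of the 10 member arms in the small RNA library on a log axis, with horizontal lines for the exact 95% counting interval and a dashed line at 10 reads. The miR-143 and miR-145 arms lie at 364 reads and above, the miR-199 arms at 85 and below, and the miR-214 arms at 1 and 2.

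The miR-199 arms had few reads, and whether reads at this level came from the cells themselves was not tested. miR-199a-3p had 85 reads (7.21 RPM, 5.76 to 8.92) at rank 341, and miR-199a-5p had 51 (4.33 RPM, 3.22 to 5.69) at rank 397. miR-199b-5p had 21 reads (1.78 RPM, 1.10 to 2.72) at rank 504, and miR-199b-3p had 10 (0.849 RPM, 0.407 to 1.56) at rank 612. The median listed miRNA had 10 reads, so miR-199b-3p stood in the middle of the list, at percentile 49.3.

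miR-214 was close to the lower end of the list. miR-214-5p had 2 reads and miR-214-3p, the arm that most studies of miR-214 describe, had 1. Of the 1224 listed miRNAs 221 had 1 read and 113 had 2, and rows with fewer than 1 read are not in the list. For the 3 miR-214 reads together the interval ran from 0.0525 to 0.744 RPM.

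Of the 10 arms 8 had at least 10 reads, the minimum taken here for detection, against 51.6% of all listed miRNAs. The exceptions were the miR-214 arms. The 8 arms include the identical 3p sequence of miR-199a and miR-199b under both names. Of these names miR-199b-3p, with 10 reads, stood exactly at the minimum. In the order of levels, each of the 6 highest arms, down to miR-199a-5p, had an interval that did not overlap that of the next arm. The intervals of miR-199b-5p and miR-199b-3p overlapped (ratio 2.10, counting interval 0.947 to 4.99), as did those of miR-199b-3p and miR-214-5p (5.0, 1.07 to 46.9) and those of both miR-214 arms.

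**Figure D2:**
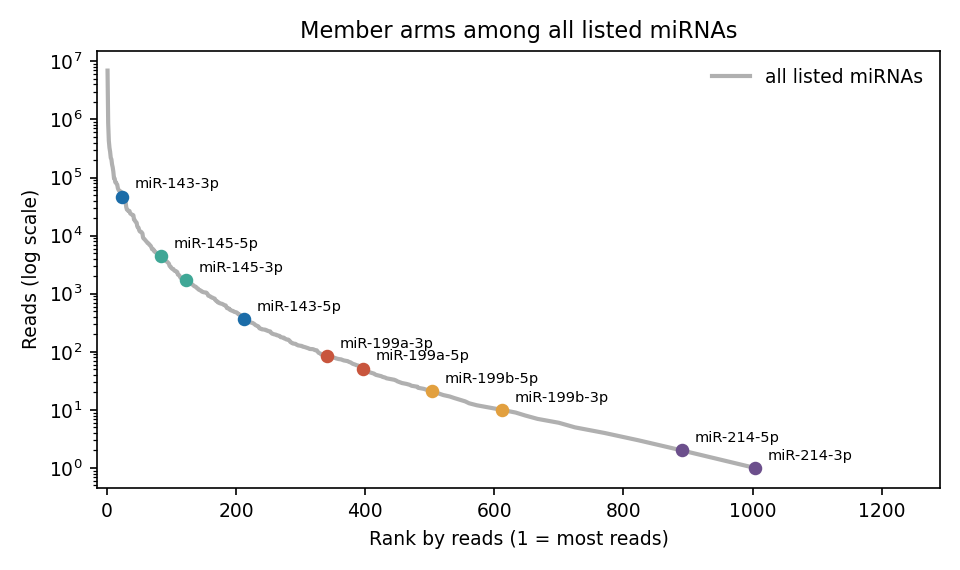
Reads of all listed miRNAs against their rank (grey line; ties share the lowest rank number; log axis), with the 10 member arms as coloured points. The members run from rank 24 for miR-143-3p to rank 1004, shared by all miRNAs with 1 read, for miR-214-3p.

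The stems differed in how their reads were split between the arms. The 3p arm of miR-143 held 99.2% of its reads (99.2 to 99.3%). miR-145 used both arms, with 72.3% on the 5p arm (71.1 to 73.4%) and 27.7% on the 3p arm. As listed, the 5p share was 37.5% (29.4 to 46.2%) in miR-199a and 67.7% (48.6 to 83.3%) in miR-199b. These shares depend on how the 95 reads of the 3p sequence that both names share were assigned. With those reads divided evenly, an alternative added after seeing the data, the 5p share became 51.8% in miR-199a and 30.7% in miR-199b, so the direction turned in both. Pooled over both names it was 43.1% (35.5 to 51.0%), which includes an even split. With 3 reads, the 5p share of miR-214 was open from 9.43 to 99.2%, and no arm preference was detectable at this depth.

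Against other stems, the lower arm of miR-143 held a small part and that of miR-145 a large one. Both arms had a row with an identical stem name, and together 100 reads or more, in 169 stems. In these the median share of the lower arm was 4.55%. The counts of stems that follow include the member stem itself, except for the pooled miR-199 value, which is not among the 169 stems. The lower arm of miR-145 held 27.7% of its reads, and in 25 of the 169 stems (14.8%) the share was as high or higher. For miR-143 it was 0.767%, reached or passed by 134 stems (79.3%). For miR-199a it was 37.5% as listed, reached or passed by 14 stems (8.28%), and 43.1% pooled with miR-199b, reached or passed by 6 (3.55%), with the doubt on the shared 3p reads given above. As a consequence of this split, miR-143-3p had 10.5 times the reads of miR-145-5p (10.2 to 10.9), while the stems, which are cut from the same transcript, differed 7.68 times (7.47 to 7.88).

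**Figure D3:**
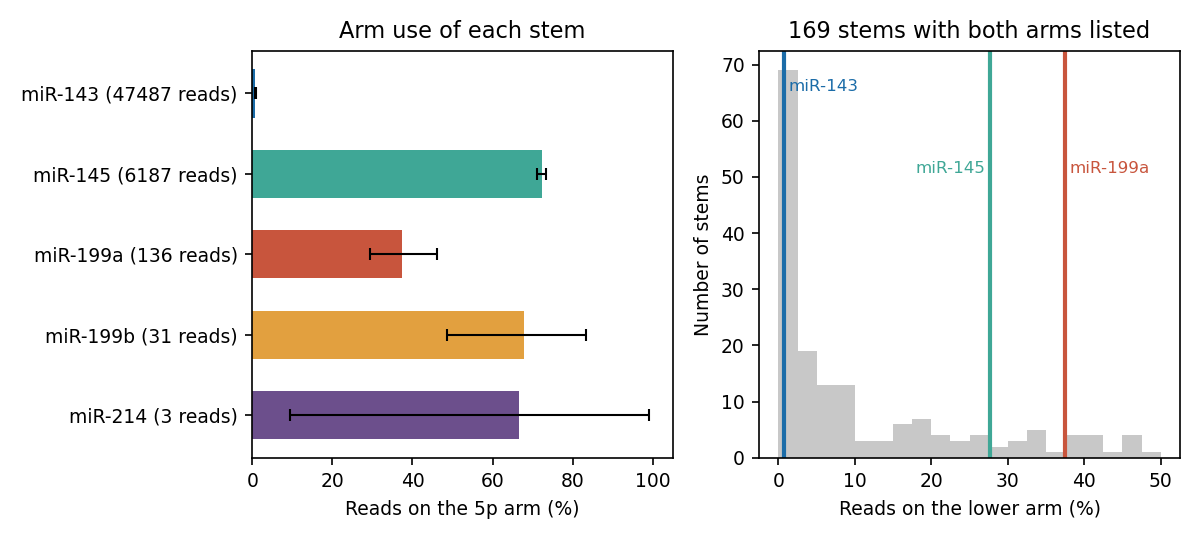
Left, percent of each stem's reads on the 5p arm, as bars from 0 with exact 95% counting intervals. Right, the number of stems by the percent of reads on their lower arm for the 169 stems with both arms listed and at least 100 reads, with coloured lines at 0.767% for miR-143, 27.7% for miR-145 and 37.5% for miR-199a. The miR-199a and miR-199b values are as listed and depend on how reads of their shared 3p sequence were assigned.

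The miR-199 names could be told apart on one arm only. On the 5p arms, which differ by 2 bases, miR-199a had 51 reads and miR-199b 21, a ratio of 2.43 (1.44 to 4.25). On the 3p arms, whose sequences are identical, 85 reads stood under miR-199a and 10 under miR-199b, a ratio of 8.5 (4.4 to 18.4). The name miR-199a held 70.8% of the 5p reads (58.9 to 81.0%) and 89.5% of the 3p reads (81.5 to 94.8%). The 3p reads were therefore split neither evenly nor in the proportion of the 5p reads. The rule by which the authors assigned reads to identical entries is not given in the sources used here, so the 3p values of the names are uncertain and their sum, 95 reads, is the safer value. The miR-199 reads of both arms and names numbered 167.

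The hairpins of the miR-199 loci are shown because the mature 3p sequence, in capitals together with the 5p arm, cannot say from which of them a read came. They are RefSeq sequences of GRCh38.p14.
MIR199A1: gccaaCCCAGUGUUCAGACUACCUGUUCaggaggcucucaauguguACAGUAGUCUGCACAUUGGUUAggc
MIR199A2: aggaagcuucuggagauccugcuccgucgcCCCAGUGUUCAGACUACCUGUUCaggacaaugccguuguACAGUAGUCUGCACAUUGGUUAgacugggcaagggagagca
MIR199B: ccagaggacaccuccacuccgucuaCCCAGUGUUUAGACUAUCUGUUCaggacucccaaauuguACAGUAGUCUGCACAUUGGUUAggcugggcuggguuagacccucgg

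MIR199A1 lies at chr19:10817426-10817496 within the span of DNM2, MIR199A2 at chr1:172144535-172144644 within that of DNM3, and MIR199B at chr9:128244721-128244830 within that of DNM1, a further dynamin gene. All 3 hairpins are on the minus strand and the 3 dynamin genes on the plus strand, so each hairpin is antisense to its dynamin gene. Both miR-199a hairpins give the same 2 mature arms, so the 136 miR-199a reads cannot be divided between the DNM2 and the DNM3 locus.

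MIR214 lies at chr1:172138798-172138907, 5627 bases from MIR199A2 on the same strand and likewise inside DNM3 and DNM3OS. MIR143 at chr5:149428918-149429023 and MIR145 at chr5:149430646-149430733 are 1622 bases apart on the plus strand, within the span of CARMN on the same strand. Whether a hairpin lies in an exon or an intron was not determined. miR-199a had 45.3 times the reads of miR-214 (counting interval 15.2 to 223), a ratio that includes any miR-199a reads from the DNM2 locus.

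Few other listed miRNAs shared a seed with the members. miR-3129-5p, with the miR-199a-3p seed, had 60 reads beside the 95 of both miR-199 3p names. miR-3619-5p, with the miR-214-3p seed, had 4 reads against 1 for miR-214-3p itself. The other 6 seeds occurred in member arms only among the listed miRNAs, so that the seed of miR-143-3p rested on its own 47123 reads and that of miR-145-5p on its own 4472. These non-member sequences are shown beside the members because they share the seed, in capitals, without being the same miRNA. Of the 14 bases after the seed, aligned by position, miR-3129-5p had 9 in common with miR-199a-3p and miR-3619-5p had 6 in common with miR-214-3p.
miR-3129-5p: gCAGUAGUguagagauugguuu
miR-3619-5p: uCAGCAGGcaggcuggugcagc

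The dynamin genes hold further miRNAs, of which hardly any reads were listed. miR-3120-3p, from the DNM3 strand opposite to MIR214, had 1 read. Its sequence, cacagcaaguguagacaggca, pairs over all 21 bases with miR-214-5p, which had 2 reads. miR-4748, from DNM2 on the sense strand, had 1 read, and miR-638 of DNM2 and miR-3154 of DNM1 had no row. In the piRNA table of the same library, 0 of 10487 entries shared 18 or more bases in a row with a member arm, and the longest shared run was 14 bases.

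Dynamins are the GTPases that pinch off endocytic vesicles; DNM2 is the form found in all tissues, DNM1 is known mainly from neurons and DNM3 from brain and testis. DNM2 was listed at 69.4 FPKM (sequenced fragments scaled by gene length and library size, so a level per length), rank 1059 of the 21445 genes and percentile 95.1. DNM3 was listed at 3.23 FPKM, rank 10453 and percentile 51.3, close to the median listed gene at 2.96 FPKM. Among the 14376 listed coding genes, whose median was 7.82 FPKM, DNM3 stood at percentile 34.3 and DNM2 at 93.7. DNM2 was thus 21.5 times DNM3 in FPKM, and DNM1, at 5.95, lay between them. Both hosts were above 1 FPKM, as were 64.6% of all listed genes and 77.5% of the coding ones. DNM3 and DNM2 are coded opposite to the miR-199a and miR-214 hairpins they hold. It is not stated whether the FPKM values were counted by strand, so reads of antisense transcripts cannot be told apart from theirs. The dynamins are also alike in sequence, and reads they share may have been divided between them.

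The genes that work with dynamin at clathrin-coated pits were nearly all listed well above 1 FPKM. The list used held 17 genes, among them DNM1 itself and the dynamin-like DNM1L (43.3 FPKM). Of the 17 genes 16 (94.1%) reached 1 FPKM, against 64.6% of all listed genes and 77.5% of coding genes. Their median log2(FPKM + 1) was 5.45, against 1.98 over all listed genes and 3.14 over coding genes. The adaptor subunit AP2M1 (210 FPKM), clathrin heavy chain CLTC (187), the adaptor subunit AP2S1 (159) and clathrin light chain CLTA (129) were highest. DNM1 and the endophilin SH3GL2 (0.148), which is known from neurons, were lowest. DNM2 lay inside the range of this list and DNM3 below all of its members but SH3GL2.

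The transcripts from which the miRNAs are cut were low or had no row. CARMN, the long non-coding RNA that holds MIR143 and MIR145 and is listed in the file under its older name MIR143HG, was at 1.52 FPKM and percentile 41.0. DNM3OS had no row, and DNM3-IT1, a short transcript inside DNM3 on its sense strand by its listed type, was at 0.661. A missing row is not read here as a lack of expression, because DDX5, an RNA helicase used by all cells, had none either. The level of CARMN did not rank with that of its miRNAs: the gene stood below the median listed gene and miR-143-3p at percentile 98.1 of the listed miRNAs. Gene and small RNA levels are on different scales in different libraries, so only their ranks are set side by side.

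Collagen type I, the main fibrillar collagen of stroma, was among the highest coding transcripts. COL1A2 was listed at 535 FPKM, rank 79 of the coding genes, and COL1A1 at 476, rank 93, both above percentile 99 of all listed genes. Both chains are needed for the usual type I trimer, and they differed 1.12 times in FPKM. COL1A1 was 6.86 times DNM2, 147 times DNM3 and 314 times CARMN. High collagen type I thus stood beside miR-143-3p at rank 24 of the miRNAs, and beside miR-199a-3p at rank 341 and miR-214-3p at rank 1004.

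The other fibrillar collagens followed at a distance. A row was listed for 6 of 7 fibrillar collagen genes, each past 1 FPKM, as were 77.5% of listed coding genes. Their median log2(FPKM + 1) was 6.41, against 3.14 for coding genes. COL5A2 (88.8 FPKM) and COL5A1 (79.8), which regulate fibril width, came next, then COL3A1 (64.2), 8.33 times below COL1A2, and COL5A3 (4.38); COL11A1 had no row. Of 12 genes that hydroxylate, fold, cut or cross-link collagen 11 (91.7%) passed 1 FPKM, against the same 77.5% of coding genes. The median was 5.95, against 3.14. The cross-linking enzymes LOXL2 (373 FPKM) and LOX (280.1) and the prolyl hydroxylase subunits P4HB (288) and P4HA2 (193) led, and the procollagen proteinases BMP1 (20.9) and ADAMTS2 (0.532) were lowest.

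**Figure D4:**
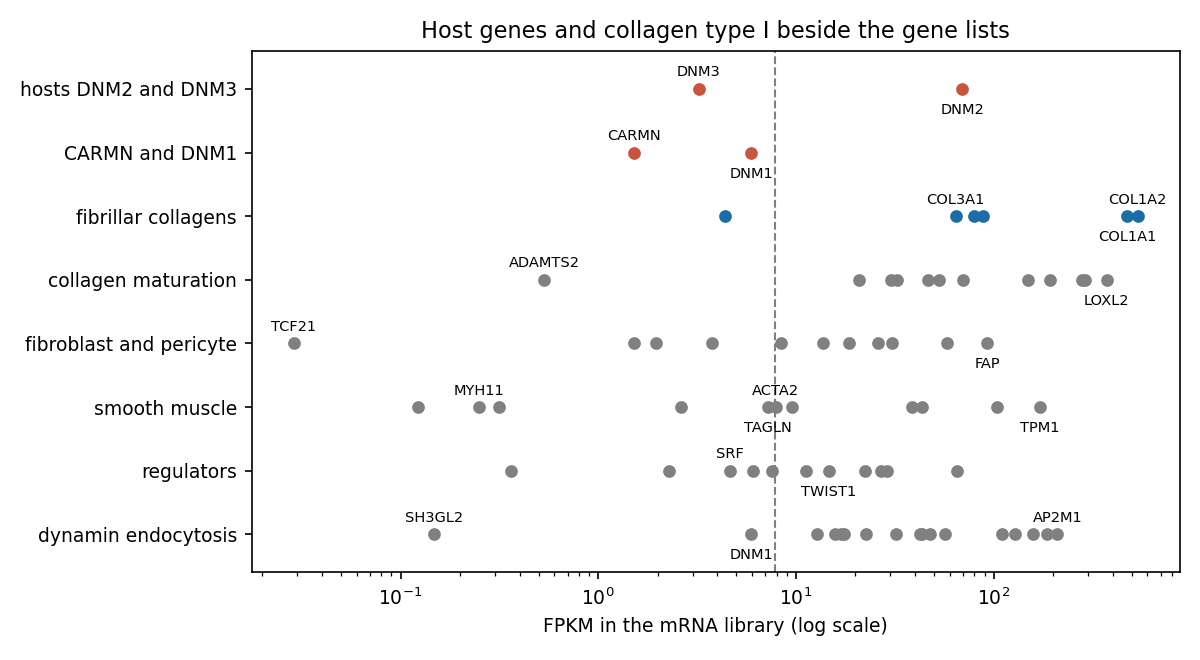
FPKM in the mRNA library on a log axis for the host genes and for gene lists; each point is 1 gene with a row, and the dashed line is the median of all listed coding genes, 7.82. DNM2 (69.4) lies far right of DNM3 (3.23), CARMN (1.52) left of the line, and COL1A1 and COL1A2 at the right end.

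Markers of fibroblasts and pericytes were mixed. Of 12 markers 11 had a row, and 10 of these (90.9%) were above 1 FPKM, against 77.5% of listed coding genes. The median log2(FPKM + 1) was 3.87 over the 11 with a row, not far above the 3.14 of coding genes. The protease FAP (92.7 FPKM), the proteoglycans LUM (57.9) and DCN (30.7) and the calcium-binding S100A4 (25.9) were highest. The pericyte gene RGS5 (1.52) and the transcription factor TCF21 (0.0288) were lowest, and THY1 had no row.

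Genes of the smooth muscle programme, in which miR-143 and miR-145 are best known, lay on both sides of the coding median. Of 12 genes 11 had a row, and 8 of these (72.7%) were above 1 FPKM, against 77.5% of listed coding genes. The median of 3.16 over the 11 with a row was close to the 3.14 of all coding genes. The actin-binding tropomyosin TPM1 (171 FPKM), caldesmon CALD1 (104.5), smoothelin SMTN (43.7) and the myosin light chain MYL9 (38.6) were highest. TPM1 and CALD1 are also made in many other cells. The smooth muscle myosin MYH11 (0.249) and LMOD1 (0.123), an actin-filament gene of mature smooth muscle, were lowest, and the filament gene DES had no row. The smooth muscle actin ACTA2 (7.92) and the actin-binding TAGLN (7.19) were near the coding median; they fall outside the rule for named genes and were picked after their values were seen.

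Of 13 genes known to act on these miRNA loci 11 had a row. Of these 10 (90.9%) passed 1 FPKM, against 77.5% of listed coding genes. Their median log2(FPKM + 1) was 3.61 over the 11 with a row, against 3.14 for coding genes. The Notch partner RBPJ (65.6 FPKM), the TGF-beta receptor TGFBR2 (28.9), SMAD4 (27.0) and the SRF partner MRTFB (22.5) were highest, and NOTCH3 (2.28) and TWIST2 (0.363) lowest. Myocardin (MYOCD), the smooth muscle partner of SRF at the miR-143 and miR-145 locus, had no row, and SRF itself was at 4.64. TWIST1, a factor known to act on DNM3OS, was at 14.7 beside 3 miR-214 reads; it and SRF were also picked after their values were seen.

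Reported targets of the members were taken from a list made from general knowledge, and their counts are to be read against the 77.5% of coding genes above 1 FPKM and their median log2(FPKM + 1) of 3.14. For miR-143-3p, with 47123 reads, 6 of 6 targets were above 1 FPKM with a median log2(FPKM + 1) of 4.51, led by the glycolytic enzyme HK2 (86.7 FPKM) and FNDC3B (66.3), with the DNA methyltransferase DNMT3A lowest at 2.27. For miR-145-5p, 9 of 12 targets had a row, and 8 of these (88.9%) were above 1 FPKM. The median over the 9 was 3.99, led by the transcription factor MYC (26.9), the actin-bundling FSCN1 (24.8) and the mucin MUC1 (20.7). The pluripotency factor KLF4 was at 3.34 and SOX9 at 0.746, and SOX2, POU5F1 and FLI1 had no row. For the low arms, 4 of 5 targets of miR-199a-5p had a row, and all 4 were above 1 FPKM. So were 3 of 3 targets of miR-199a-3p and 6 of 6 of miR-214-3p. The median log2(FPKM + 1) was 5.94 over the 4 for miR-199a-5p, 5.54 for miR-199a-3p and 5.13 for miR-214-3p.

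Among these, the hypoxia factor HIF1A (373 FPKM) and caveolin CAV1 (327) led the miR-199a-5p targets, where DDR1 had no row. The hyaluronan receptor CD44 (560) led those of miR-199a-3p, followed by the receptor MET (45.4) and the kinase MTOR (20.8). The integrin ITGA3 (236) and beta-catenin CTNNB1 (168) led those of miR-214-3p, with the factors EZH2 (11.3) and TFAP2C (4.36) lowest. With 1 library of each kind, whether a miRNA lowered any of these genes cannot be measured.

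Markers of other cell types were checked once. Their counts are over all markers of a list, with or without a row, while 77.5% of listed coding genes were above 1 FPKM. Among markers with a row the share was 66.7% of 3 glial markers. It was 50% of 4 endothelial, 50% of 2 immune and 50% of 2 epithelial markers. Of 8 glial markers 2 were above 1 FPKM, GJA1 (142.99 FPKM) and SLC1A3 (19.3), while GFAP was at 0.331 and S100B, OLIG2, SOX2, AQP4 and ALDH1L1 had no row. The 5 markers without a row are not read as absent. Endothelial markers had 2 of 6 above 1 FPKM, KDR (3.29) and TEK (1.23), with CDH5 at 0.0675, VWF at 0.0536; PECAM1 and CLDN5 were without a row. Immune markers had 1 of 6, CSF1R (1.51), with ITGAM at 0.0342 and no row for PTPRC, AIF1 and CD3E among others, and epithelial markers 1 of 5, KRT5 (1.31), with EPCAM at 0.0902 and no row for CDH1, KRT19 and CLDN4.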

How the data were processed

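Read counts per mature miRNA and per piRNA entry were deposited by the authors without normalization, per the file headers; a NEBNext small RNA kit and 50-base single-end reads were used, per the labels' protocols. FPKM values per Ensembl gene were computed by the authors, per the file headers; depth is unknown, and FPKM has no interval. cutadapt, hg19 and GRCh37 are named in the submitters' processing notes, without roles; for the aligner, counter and multi-mapping rule, none is named in the sources. The labels repeat the small RNA protocol for the mRNA library. Depth was 11785001 miRNA reads and 27299683 piRNA reads.

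Members and lists were chosen with earlier results of these data known. Shares and ratios of reads have exact Clopper-Pearson 95% intervals (Python 3.11.15, scipy 1.17.1), checked on simulated data. A miRNA was called detected at 10 reads and a gene at 1 FPKM; list medians used log2(FPKM + 1) over members with a row. Named were all members, COL1A1 and COL1A2, the entries sharing a seed, and up to 4 highest, the 2 lowest and the genes without a row of each list, except where the text says otherwise; in lists of targets some are given as counts, and a few items that the rule names are not reported here. Of 21445 gene identifiers 20595 matched the gene name table. Of 131 listed symbols 108 had a row. Hairpins came from RefSeq, GRCh38.p14. No test between conditions was possible with 1 library of each kind.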

Additional observations from a re-analysis of the deposited data

How the results depend on the processing

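No paired analysis was possible because each kind of library has 1 sample. The member share of 0.457% was 1.11% without miR-21-5p in the total, 0.138% of miRNA and piRNA reads together, and 0.457% with identical sequences collapsed. The 8 arms at 10 reads or more were 10 at a minimum of 1 read and 4 at 100. Entries with a member seed had 53908 reads, and 53935 with a seed of bases 2 to 7. The 5p share of miR-199a turned from 37.5 to 51.8% and that of miR-199b from 67.7 to 30.7% with their identical 3p reads split evenly; pooled it was 43.1%, which turns miR-199b as well. Among coding genes the percentile of DNM2 was 93.7 and that of DNM3 34.3. At 10 FPKM, 1 of 2 hosts, 6 fibroblast and pericyte, 4 smooth muscle, 6 regulator and 0 primary transcript, endothelial, immune and epithelial genes were left. With missing rows at 0 the median log2(FPKM + 1) was 3.55 for fibroblast and pericyte markers, 3.10 for regulators and 1.33 for primary transcripts and DNM1. It was 3.67 for miR-145-5p targets, 3.52 for miR-199a-5p targets, 0.0848 for endothelial markers and 0 for glial, immune and epithelial markers. Over members with a row it was 5.94 for miR-199a-5p targets and 2.06 for primary transcripts and DNM1. Likewise it was 4.34 for glial, 0.626 for endothelial, 0.688 for immune and 0.665 for epithelial markers. A pseudocount of 0.1 gave 3.004 for smooth muscle genes, 3.50 for regulators, 1.64 for primary transcripts and DNM1, -1.08 for endothelial, -1.11 for immune and -0.951 for epithelial markers. These shifts follow from the definition of each alternative; the other 49 values moved by at most 0.1 in a median, 1 in a percentile, the counting interval of a share or 1.5 times in a count. Depth limits the miR-214 and miR-199b values most. Intervals cover counting error of reads only, since each kind of library has 1 sample. The labels name no molecular identifiers, so repeated copies of the same molecule could not be told apart from separate molecules.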

Other observations

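Pairs of hairpins on the same strand and within 10 kb of each other were compared, a comparison chosen after the member values were seen. The set of pairs is not complete: miR-93 (6953 reads), miR-183 (1981) and miR-200a (102) are in none of them. Paired hairpins are therefore not taken here as direct neighbours, and the medians and percentages below hold for the compared pairs only. Numbered gene copies were counted together with the strand they share (miR-24-1 under miR-24). In the 57 pairs of different miRNAs that each have 1 locus in the RefSeq table, with the higher at 100 reads or more, the higher miRNA had a median of 7.04 times the reads of the lower. The 7.68-fold difference between miR-143 and miR-145 was reached or passed in 28 of them (49.1%), this pair included. With miRNAs of several loci included, as miR-199a is, 85 pairs had a median of 7.38. Of these 21 (24.7%), this pair included, reached the 45.3-fold difference between miR-199a and miR-214. Reads of miRNAs with several loci cannot be assigned to 1 of them, and pairs of the same cluster share hairpins, so they are not independent of each other.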
